A study of Mus musculus with 3 samples.

Results

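The IL-6 family was followed in RAW264.7 macrophages, a mouse macrophage cell line, as 8 genes of the 36870 gene names on the array. They are the cytokines Il6, Osm, Lif and Il11 and the receptor chains Il6ra, Il6st, Osmr and Lifr, and they were found by their gene name among the spots that are not controls. The 8 genes had 17 probes. All 15 probes that matched a RefSeq accession carried the same symbol there, and no probe of these genes was found under another name.

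The 3 conditions were measured on 1-colour Agilent arrays, with 1 array each. Macrophages were stimulated for 3 h with LPS, the cell wall component of Gram-negative bacteria that activates TLR4, either alone or after treatment with the LOC1 or the LOC3 strain of Lactiplantibacillus plantarum, both obtained from tea leaves. The time for which lactobacilli were present beforehand differs between the series text and the methods. The 3 conditions therefore share the cell line and the LPS challenge and differ in the strain, and the array of macrophages without LPS is not analysed here. Since each condition had a single array, differences between conditions come without an SD, a test or a p-value. The comparisons of LOC1 and of LOC3 with LPS use the same LPS array.

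All cytokines of this family signal through gp130, the receptor chain encoded by Il6st. IL-6 first binds its own receptor chain, encoded by Il6ra, LIF pairs gp130 with the LIF receptor, and oncostatin M pairs it with the oncostatin M receptor. Engaged gp130 activates JAK kinases and STAT3, which in turn switches on Socs3, an inhibitor of the same pathway. In macrophages, Il6 is a classic target of NF-kB after TLR4 activation, and IL-6 is among the cytokines by which these cells drive the acute phase response.

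The promoter of Il6 is shown because Il6 was the member higher by at least 2-fold with both strains, and that of Il6ra because it was lower by at least 2-fold with both. Each window is the 250 bases before the annotated start of the gene in RefSeq, build GRCm38.p6, written 5′ to 3′ on the strand of the gene. The Il6 window lies at chr5:30012864-30013113 on the plus strand and the Il6ra window at chr3:89913197-89913446 on the minus strand. Capitals mark matches on either strand to an AP-1 motif (TGANTCA), a C/EBP motif (TTNNGNAAT) and an NF-kB motif.
Il6 promoter: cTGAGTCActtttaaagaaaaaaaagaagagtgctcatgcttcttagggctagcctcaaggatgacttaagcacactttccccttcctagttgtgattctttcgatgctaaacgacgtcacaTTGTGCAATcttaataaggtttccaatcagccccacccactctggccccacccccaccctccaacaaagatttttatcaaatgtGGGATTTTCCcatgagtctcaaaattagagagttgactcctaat
Il6ra promoter: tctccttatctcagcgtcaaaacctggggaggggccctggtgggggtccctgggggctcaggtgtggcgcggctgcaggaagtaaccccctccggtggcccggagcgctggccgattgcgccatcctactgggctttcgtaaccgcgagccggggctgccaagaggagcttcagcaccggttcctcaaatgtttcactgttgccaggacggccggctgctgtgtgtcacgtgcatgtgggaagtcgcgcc
The Il6 window held the NF-kB match 44 to 35 bases before the start, the C/EBP match 128 to 120 bases before it and the AP-1 match 249 to 243 bases before it. Of 32851 RefSeq windows of the same length, 1.41% held the NF-kB motif, 10.2% the C/EBP motif and 6.75% the AP-1 motif. The Il6ra window held none of these motifs, and neither window held the CRE motif (TGACGTCA) or the STAT motif (TTCNNNGAA), present in 1.55% and 7.02% of windows. The GC content was 42.8% for Il6 and 65.2% for Il6ra. A match is a description of the letters, and its absence says only that they are not in this window.

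On the arrays, an intensity is the background-corrected brightness of a probe, and differences between arrays are on the log2 scale after subtraction of the 75th percentile of each array. That percentile was at 555 for the LPS array, 513 for LOC1 and 516 for LOC3, and the share of probes well above background was 51.9%, 50.4% and 47.8% in that order. A dimmer signal was raised to the lowest signal well above background, an intensity of 16.3, 14.5 and 19.8, and the difference is then a bound, given as at least N-fold. The 3 arrays shared 1 slide and 1 scan. From probes spotted repeatedly, the technical SD of a difference was 0.06 on the log2 scale for bright probes and 0.26 to 0.30 for 8 dim ones, which leaves out variation between cultures. All 10 macrophage markers were well above background on the 3 arrays. Of the epithelial markers Krt8, Krt18, Krt19, Cdh1 and Vil1 were not well above background on any array, with summed intensities over the 7 markers of 79.0 to 89.1, and the lymphocyte markers Cd2 and Cd79a were not either. The T cell markers Cd3e, with intensities of 396, 416 and 451, and Cd3d, with 66.4, 60.3 and 42.9, were well above background on all 3 arrays. Summed intensities over the 6 fibroblast markers were 222 for LPS, 151 for LOC1 and 154 for LOC3. Dcn, a fibroblast marker, had 81.8, 35.4 and 43.0, and Ms4a1, a B cell marker, 29.0, 55.9 and 18.8, the last not well above background, and their part in the results below was not tested.

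Of the 8 genes, Il6, Osm, Il6ra and Il6st were well above background on all 3 arrays, Il11 and Lifr on the LPS array only, and Lif and Osmr on none. At a threshold of 2-fold, 1 of the 6 genes that could be compared was higher with LOC1 than with LPS alone, Il6, where 2.49% of all 20034 genes were higher. Il6ra and Lifr were lower, 2 of 6, where 3.81% of all genes were lower, and 6.30% passed in either direction. With LOC3 the same 3 genes passed, 1 of 6 higher and 2 of 6 lower. Of all 19816 genes, 3.00% were higher, 3.18% were lower and 6.18% passed in either direction. Lifr and Il11 were compared through the LPS array only, so they could only come out lower. When both arrays of a comparison had to be well above background, only Il6 and Il6ra passed with each strain. With so few genes these counts describe the members and do not set the family apart. In bulk RNA, fewer cells that express a gene and less of its RNA per cell cannot be told apart.

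**Figure D1:**
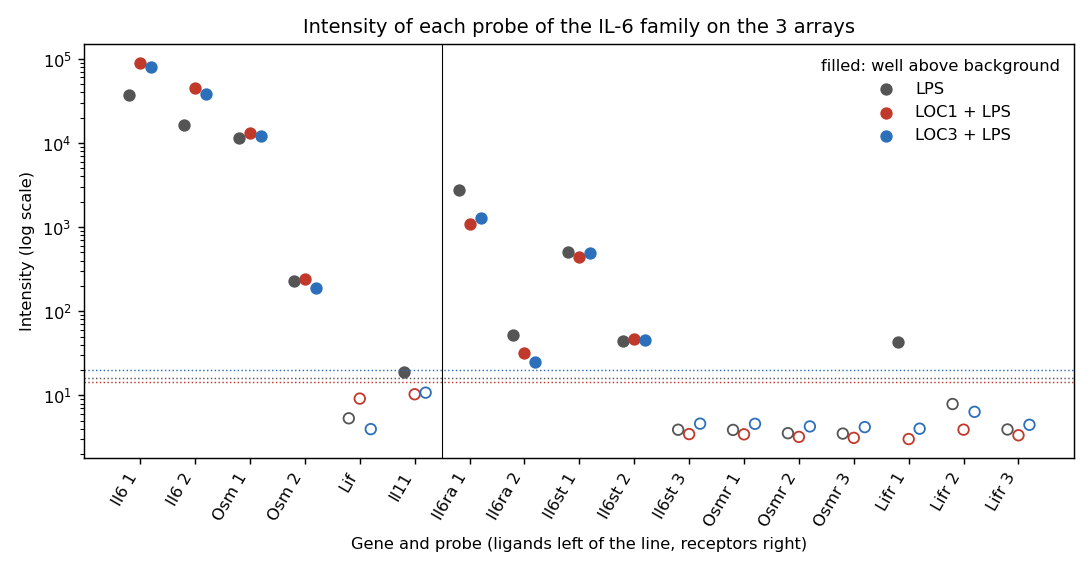
Intensity of each of the 17 probes (log axis) on the LPS, LOC1 + LPS and LOC3 + LPS arrays, with probes of a gene numbered from its brightest. Filled points are well above background, open points are not, and dotted lines mark the lowest intensity well above background on each array, 16.3, 14.5 and 19.8. Both Il6 probes are higher and both Il6ra probes lower with either strain, while the 3 Osmr probes stay under the lines.

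Il6 encodes the founding cytokine of the family. Its brighter probe, at chr5:30346367-30346426 of mm9 on the plus strand, gave an intensity of 36658 for LPS, 89676 for LOC1 and 80066 for LOC3. Both strains thus lay above LPS alone, and LOC1 above LOC3. Relative to LPS this was 2.64-fold for LOC1, a log2 difference of 1.40, and 2.35-fold for LOC3, a log2 difference of 1.23. The scanner software attached an error of 0.20 to each of these differences. The second Il6 probe, at chr5:30346159-30346218, had intensities of 16515, 45456 and 37875 and gave 1.57 with LOC1 and 1.30 with LOC3. The order of the 3 arrays was the same on both probes, and their differences were 0.17 apart with LOC1 and 0.07 with LOC3. Only the second probe is among the deposited ratios to unchallenged macrophages, where LPS stands at 12.22, LOC1 at 13.83 and LOC3 at 13.56 on the log2 scale. The intensity that these ratios imply for unchallenged macrophages, 3.46, is below 16.3, the limit of the LPS array given above, so the ratios give only at least 1012-fold, at least 3083-fold and at least 2560-fold. Il6 was thus far above unchallenged macrophages in all 3 conditions, and its level with LPS alone was the lowest of them.

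Osm encodes oncostatin M, a cytokine that macrophages release on activation. Its brighter probe, at chr11:4140873-4140932 of mm9, gave intensities of 11478 for LPS, 13183 for LOC1 and 12158 for LOC3. The log2 differences from LPS, 0.31 with LOC1 and 0.19 with LOC3, were 1.24-fold and 1.14-fold and stayed under the 2-fold threshold. Relative to unchallenged macrophages the deposited log2 ratios of this probe were 3.26, 3.60 and 3.48, which is 9.57-fold with LPS, 12.2-fold with LOC1 and 11.2-fold with LOC3. Osm was therefore high in all LPS-challenged macrophages and differed little between them. Its dimmer probe, at chr11:4139500-4139559 on the plus strand, is shown because with LOC3 it lay on the other side of LPS than the brighter probe.
Osm dimmer probe: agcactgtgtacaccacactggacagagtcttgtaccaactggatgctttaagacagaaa
This probe had intensities of 227, 241 and 191, and its log2 differences from LPS were 0.20 with LOC1 and −0.15 with LOC3. Both are within the technical SD of dim probes.

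Lif encodes leukaemia inhibitory factor, and Il11 encodes interleukin 11. The Lif probe, at chr11:4172032-4172091 of mm9, had intensities of 5.35, 9.17 and 3.98 and was not well above background on any array, so no fold is given between them. In the deposited ratios Lif was listed with LOC1 alone, at 1.75, and the values rebuilt for LPS and LOC3 were 0.83 and 0.54. All of these rest on signals not well above background, with an implied intensity of 3.01 for unchallenged macrophages. The Il11 probe, at chr7:4724847-4724906 on the minus strand, had 18.8 with LPS, which was well above background, and 10.3 and 10.8 with LOC1 and LOC3, which were not. With LOC1 it was lower by at least 1.20-fold, and no bound could be given for LOC3. Il11 was not listed against unchallenged macrophages, so its change from them is not known. For both cytokines the arrays give limits rather than levels.

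Il6ra encodes the chain that binds IL-6. Its brighter probe, at chr3:89674054-89674113 of mm9 on the minus strand, gave an intensity of 2781 for LPS, 1087 for LOC1 and 1290 for LOC3. Both strains lay below LPS alone, in the direction opposite to that of Il6. The log2 differences were −1.24 with LOC1, which is 2.37-fold lower, and −1.005 with LOC3, which is 2.01-fold lower and lies at the threshold. With median scaling the value with LOC3 was −0.81, under 2-fold. The dimmer Il6ra probe, at chr3:89680743-89680802 on the minus strand, is shown because it is the only Il6ra probe among the deposited ratios.
Il6ra dimmer probe: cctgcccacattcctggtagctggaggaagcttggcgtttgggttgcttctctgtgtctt
It had intensities of 52.9, 31.6 and 25.1, which gave −0.63 with LOC1 and −0.97 with LOC3, with scanner errors of 0.28 and 0.36. Both probes were lowest with a strain, but the strains stood in opposite order on them, and neither value of the dimmer probe reached 2-fold. With the mean of both probes the difference with LOC1 was −0.94. Against unchallenged macrophages the deposited log2 ratios of the dimmer probe were −1.14 for LPS, −1.74 for LOC1 and −2.07 for LOC3, which is 2.20-fold, 3.33-fold and 4.20-fold lower. On this probe Il6ra was thus lower than in unchallenged macrophages with LPS alone, and lower still with either strain.

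Il6st encodes gp130, the chain that all members of the family share. Its brightest probe, at chr13:113296586-113296645 of mm9 on the plus strand, had intensities of 508, 443 and 494, and the log2 differences from LPS were −0.09 with LOC1 and 0.06 with LOC3. The second probe, at chr13:113294595-113294654, had 43.9, 46.5 and 45.6, with differences of 0.20 and 0.16. On no array was the third probe well above background. No Il6st probe passed 2-fold, none was listed against unchallenged macrophages, and the sign with LOC1 differed between the probes. With median scaling the difference of the brightest probe with LOC1 was 0.13. The gp130 transcript was thus measured on 2 probes, with no difference past 2-fold between the 3 arrays. Its change from unchallenged macrophages is not known. Absence from the deposited ratios does not show a change under 2-fold, as the brighter Il6 probe is absent too.

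Osmr encodes the oncostatin M receptor chain that pairs with gp130. Its 3 probes had intensities between 3.13 and 4.60, none was well above background, and none was listed, so no level or fold is given. Lifr encodes the LIF receptor, and its 3 probes disagreed. The probe designed on 1 of its transcripts, at chr15:7135072-7135131 of mm9 on the plus strand, had 43.2 with LPS, which was well above background, and 3.03 with LOC1 and 4.03 with LOC3, which were not. With LOC1 it was lower by at least 2.76-fold. With LOC3 it was lower by at least 2.03-fold, which lies at the threshold. With normexp background correction, a model that treats part of the low signal as background, both bounds fell under 2-fold, at log2 values of −0.48 and −0.45. The deposited log2 ratios of this probe were −4.62 with LOC1 and −4.21 with LOC3, and that of LPS was blank, rebuilt as −0.93. Since the signals with a strain were not well above background, these give at least 5.12-fold and at least 3.76-fold lower than the intensity of 82.2 implied for unchallenged macrophages. A second Lifr probe, at chr15:7147319-7147378, had 7.90, 3.92 and 6.38, not well above background, and was listed at −4.62, −5.49 and −4.79. Its implied unchallenged intensity of 195 allows at least 11.9-fold lower with LPS, at least 12.1-fold with LOC1 and at least 8.90-fold with LOC3. On the third probe, at chr15:7141681-7141740, intensities were 3.94, 3.36 and 4.48, and it was not listed. Lifr was thus lower than the implied unchallenged level on both listed probes with either strain, and with LPS alone only on the second of them by 2-fold or more.

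**Figure D2:**
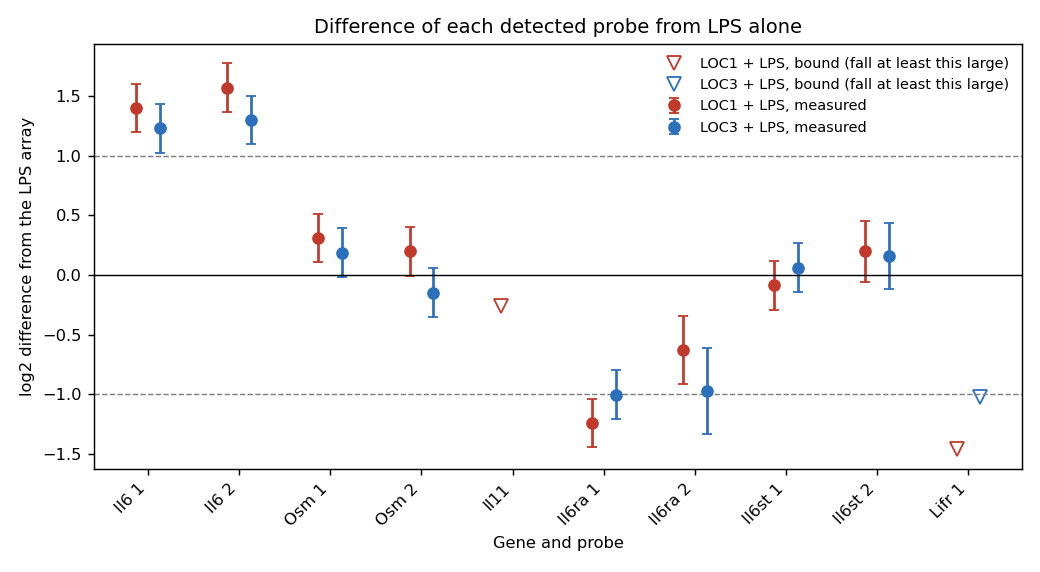
Difference of LOC1 + LPS and LOC3 + LPS from the LPS array for each probe well above background on at least 1 array compared (y axis, log2 units, bars show the scanner error). Triangles are bounds, where the fall is at least as large as drawn, and dashed lines mark 2-fold. Il6 lies between 1.23 and 1.57 on both probes, the brighter Il6ra probe at −1.24 and −1.005, and Osm and Il6st lie near 0.

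**Figure D3:**
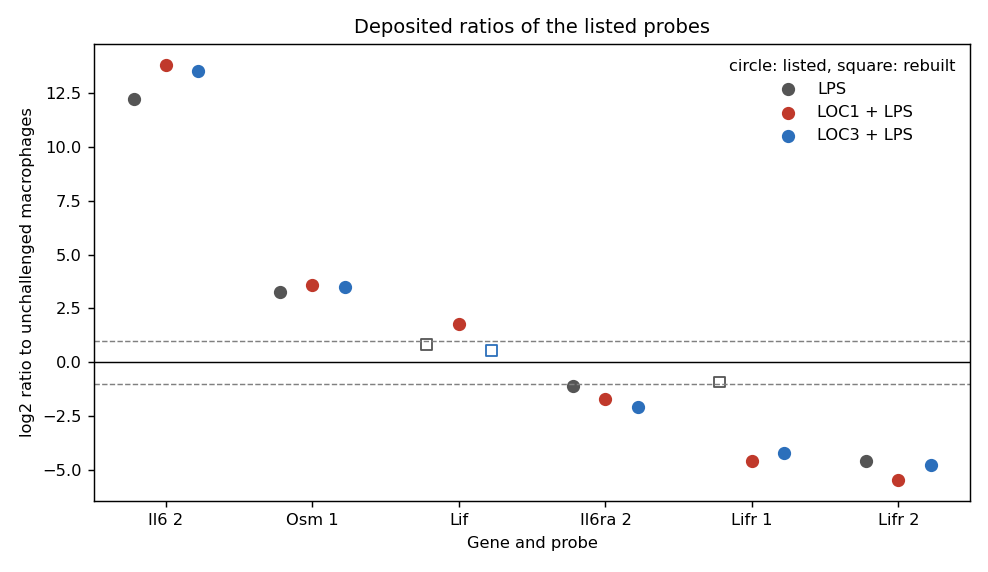
Deposited log2 ratios to unchallenged macrophages (y axis) of the 6 member probes that are listed, for the 3 LPS-challenged conditions. Squares are values under 2-fold, blank in the deposited table and rebuilt from the intensities, and dashed lines mark 2-fold. Il6 lies between 12.22 and 13.83, Osm between 3.26 and 3.60, and Il6ra and Lifr below 0. The Lif points, the second Lifr probe and the LOC1 and LOC3 points of the first Lifr probe rest on array signals not well above background.

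Against unchallenged macrophages, Il6 and Osm of the 8 genes were listed as higher with LPS alone, where 9.70% of all gene names were listed as higher, and Il6ra and Lifr as lower, where 8.66% were. With LOC1, Il6, Osm and Lif were listed as higher, against 11.0% of gene names, and Il6ra and Lifr as lower, against 11.6%. With LOC3 the members listed were those of LPS alone, against 11.1% and 12.1% of gene names. The ratios are relative to 1 reference that all 3 columns share. On each of the 3 columns the ligands that were listed were listed as higher, and the receptors that were listed were listed as lower. Lif with LOC1 and all listed values of Lifr rested on array signals not well above background. Il6ra was listed on its dimmer probe only.

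LOC1 and LOC3 were also set directly against each other. Of the 4 members that could be compared, 0 differed by 2-fold, where 2.66% of 19401 genes did, 0.799% higher and 1.87% lower with LOC1, and no p-value can be given. The log2 difference of LOC1 from LOC3 was 0.17 for Il6, 0.13 for Osm, −0.24 for Il6ra and −0.15 for Il6st. All 4 exceeded the technical SD of 0.06 for bright probes, and only that of Il6ra exceeded the scanner error of 0.20. On the dimmer Il6ra probe the difference was 0.34, in the other direction. Values under 2-fold do not show that the strains act alike.

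The other cytokines and receptors that use gp130 or its relatives were followed as a list of 13 genes, of which 12 were on the array. Clcf1, Ctf1, Il31, Cntfr, Il27ra and Il31ra were not well above background on any array. Of the 6 genes compared, 0 were higher and 1 was lower by 2-fold with LOC1, where 2.49% and 3.81% of all genes were, and 0 passed with LOC3, where 6.18% of all genes did in either direction. The median difference of the list from LPS was −0.35 for LOC1 and −0.19 for LOC3 on the log2 scale, beside 0.00148 and 0.025 over all genes. The gene that passed was Ebi3, a subunit of IL-27, with intensities of 62783, 27311 and 33025 and differences of −1.09 with LOC1 and −0.82 with LOC3. With median scaling the value for LOC1 was −0.87, under 2-fold. Il27, the partner subunit, had 420, 646 and 592, with differences of 0.73 and 0.60. The IL-27 subunits thus stood on opposite sides of LPS with both strains, and Il27 stayed under 2-fold. Il11ra1, the IL-11 receptor chain, differed by −0.06 and 0.09.

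Genes that carry or restrain the gp130 signal formed a list of 21, of which Gab1 was not well above background. Of the 20 compared, 0 were higher and 1 was lower with each strain, near the 3.81% of all genes lower with LOC1 and the 3.18% with LOC3, and the medians were 0.03 with LOC1 and 0.04 with LOC3. The gene that passed was Cish, a SOCS family inhibitor of cytokine signalling, with intensities of 2234, 821 and 826 and differences of −1.33 with both strains. Its deposited log2 ratio was 6.78 with LPS alone. Socs3, the inhibitor induced by STAT3, had 98815, 51544 and 67913, with differences of −0.83 and −0.44, and Socs1 had −0.64 and −0.33. These 3 inhibitors were all lower than with LPS alone on both arrays with a strain, but only Cish by 2-fold. Other negative regulators of the list stayed under 2-fold and lay on both sides of LPS. Pias3, an inhibitor of STAT3, had 0.47 and 0.25, on a dim probe with intensities of 58.0, 74.1 and 64.1. Ptpn2, a phosphatase of JAK and STAT proteins, had 0.41 with both strains, and Ptpn6, another phosphatase, −0.09 with both. The kinases Jak1 and Jak2 differed by 0.26 and 0.32 with LOC1 and by 0.33 and 0.30 with LOC3. Stat3, the main transcription factor of the pathway, differed by 0.03 and 0.23. Adam17 and Adam10, proteases known to shed the IL-6 receptor from the cell surface, had −0.53 and −0.36 with LOC1 and −0.47 and −0.34 with LOC3.

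Known target genes of STAT3 formed a list of 24, of which Fgl2 was not well above background. Of the 23 compared, 2 were higher and 6 lower with LOC1, and 1 was higher and 3 lower with LOC3, where the shares of all genes are those given above for each strain. The medians were −0.44 with LOC1 and −0.30 with LOC3. The genes that were lower with LOC1 were Sbno2, Etv3, Bcl3, Il10, Il4ra and Hp. Of these Sbno2, Etv3 and Hp also passed with LOC3.

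Sbno2, a transcriptional co-regulator, had intensities of 15854, 4387 and 6614, and the log2 differences were −1.74 with LOC1 and −1.16 with LOC3. Etv3, a transcriptional repressor of the ETS family, had 1816, 567 and 611, with −1.57 and −1.47. Bcl3, a nuclear protein of the IkB family, had 45038, 16617 and 23337, with −1.33 and −0.84. All 3 were listed as higher than in unchallenged macrophages with LPS alone, at 2.66 for Sbno2, 2.13 for Etv3 and 3.82 for Bcl3. Il10, the anti-inflammatory cytokine that itself acts through STAT3, had 2416, 969 and 1628, with −1.21 and −0.47. Il4ra, a chain of the IL-4 receptor, had −1.02 and −0.76. With median scaling the LOC1 value of Il4ra was −0.80 and the LOC3 value of Sbno2 was −0.96, both under 2-fold. Il10 with LOC1 did not pass 2-fold with median scaling either. Hp, which encodes haptoglobin, had the lower signals of 80.9, 13.5 and 24.5, the second not well above background, so that −2.36 with LOC1 is a bound and −1.62 with LOC3 is measured. With normexp, whose offset shrinks folds at low signals, these were −0.90 and −0.60, under 2-fold. The genes on the other side were Lcn2, an iron-sequestering acute phase protein, and Vegfa, a growth factor of vessels. Lcn2 had 68833, 130398 and 128129, with 1.03 for LOC1 and a value just past 2-fold for LOC3, and with quantile normalization these were 0.93 and 0.86, under 2-fold. Vegfa had 19.0, 39.7 and 34.6, the first not well above background, and its bounds were 1.18 and 0.97. With LOC1 its bound was 0.42 with normexp and 0.34 with the mean of its probes, under 2-fold. The list therefore held genes on both sides of LPS, and the balance between them moved with the scaling. With median scaling 3 genes were higher and 4 lower with LOC1, and 2 higher and 2 lower with LOC3. The medians of the list were then −0.22 and −0.10, beside 0.22 and 0.23 over all genes. With quantile normalization 1 gene was higher and 6 lower with LOC1, and 1 higher and 3 lower with LOC3. The medians were then −0.51 and −0.44, beside 0.013 and 0.016 over all genes.

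**Figure D4:**
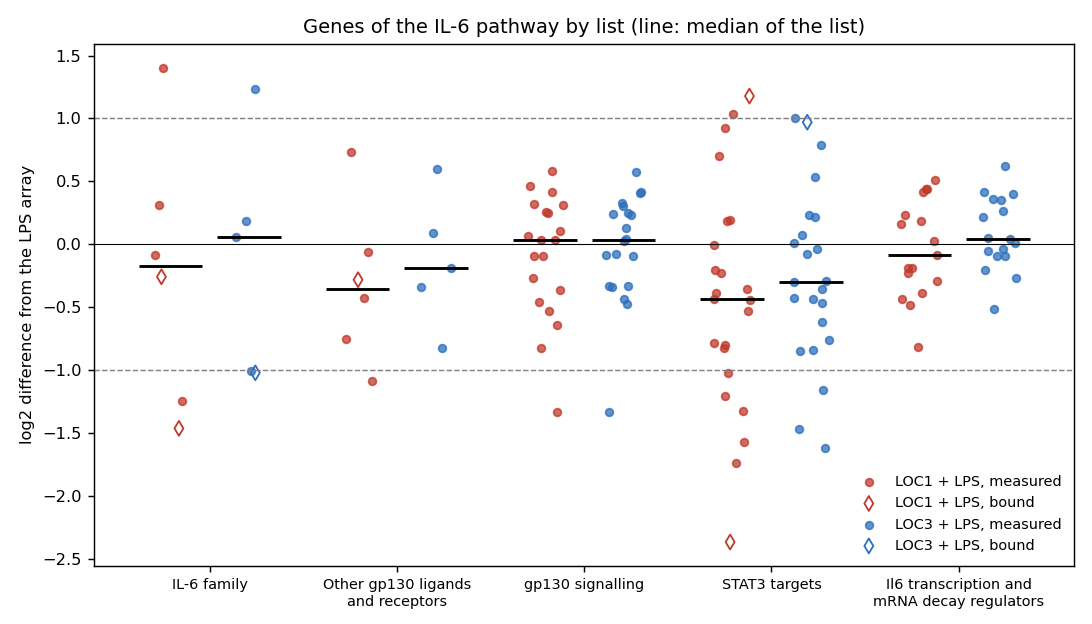
Difference from the LPS array (y axis, log2 units) of each compared gene of the IL-6 family and of 4 pathway lists, for LOC1 + LPS and LOC3 + LPS. Diamonds are bounds, horizontal lines the median of a list and dashed lines 2-fold. The STAT3 target genes have medians of −0.44 and −0.30 and hold 6 genes lower and 2 higher with LOC1. For LOC1, 4 are lower and 3 higher with median scaling, and 6 lower and 1 higher with quantile normalization, neither drawn. The regulators of Il6 transcription and mRNA decay all lie within 2-fold. Of all genes, 6.30% pass 2-fold with LOC1 and 6.18% with LOC3.

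Genes known to control Il6 transcription or the decay of its mRNA formed a list of 17, all well above background on every array. None of the 17 passed 2-fold with either strain, where 6.30% of all genes did with LOC1 and 6.18% with LOC3. With so few genes this count does not set the list apart. The medians were −0.09 with LOC1 and 0.05 with LOC3. The NF-kB subunits Rela and Rel differed by 0.44 and 0.51 with LOC1 and by 0.40 and 0.62 with LOC3. Nfkbiz, a co-activator of Il6, had 0.23 and 0.35. Zc3h12a, the nuclease Regnase-1 that degrades Il6 mRNA, differed by −0.19 and −0.05, Zfp36, which also promotes mRNA decay, by −0.49 and −0.21, and Arid5a, which stabilises Il6 mRNA, by −0.09 and 0.05. The lowest value of the list was that of Zfp36l1, a relative of Zfp36, at −0.82 with LOC1 and −0.51 with LOC3. The lists share genes, as Socs3 is in those of signalling and of STAT3 targets, and Cebpd, Fos and Junb in those of STAT3 targets and of Il6 regulators.

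Genes with a pattern most like those of Il6 and Il6ra were sought by the distance between their log2 differences with LOC1 and LOC3, over 17402 genes well above background on all 3 arrays. Nearest to Il6 were Calcrl, a receptor chain of the calcitonin receptor family, Gse1 and Ms4a6c, and Bmp2, a bone morphogenetic protein, was also among the nearest 5, at distances of 0.016 to 0.041. Calcrl had intensities of 653, 1607 and 1439. Within a distance of 0.10 of Il6 lay 14 genes. Nearest to Il6ra were 0610009E02Rik and Sh3kbp1, an adaptor protein, and Nid2, a basement membrane protein, was among the nearest 5, at distances of 0.014 to 0.044. Sh3kbp1 had intensities of 378, 147 and 173. Within 0.10 of Il6ra lay 40 genes. The likeness rests on 3 arrays and 2 differences that share the LPS array.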

How the data were processed

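RNA from 3 conditions was measured on 1-colour Agilent arrays, with 1 array per condition. Intensities were background-corrected by the authors with Feature Extraction, version 12.0.3.1 per the file headers, and deposited without normalization between arrays. The second table deposited by the authors holds log2 ratios from GeneSpring, which are relative to 1 reference, taken as the unchallenged macrophages, with a constant shift per array, and cells under 2-fold are blank. All 12931 blank cells of 13135 probes were under 2-fold when rebuilt, and for 3 probes the references implied by the columns differed by over 0.01. The submitters' processing notes name limma and R 3.2.5.

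From the intensities, spots marked as outliers, 135, 118 and 133 on the arrays, were left out, spots of 1 probe were averaged, and log2 intensity less the 75th percentile over all spots that are not controls was compared. No spot was saturated. A gene was its brightest probe, compared if at least 1 of the 2 arrays showed it well above background. The members and lists were chosen with earlier results of these data known. The genes named were all 8 members and, of each list, up to 6 genes past 2-fold and well above background on all arrays, and up to 5 genes nearest to a member. Other list genes, Dcn, Ms4a1, Hp and Vegfa among them, were chosen after their values were seen. Python 3.11.15, numpy 2.4.6, pandas 2.3.3 and matplotlib 3.10.9 were used, with limma 3.58.1 in R 4.3.3 for normexp with an offset of 50. The calls were tested on simulated data. The single array per condition limits the precision.

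The alternatives were median scaling, quantile normalization, the 75th percentile over detected probes, normexp, a filter on both arrays in place of either, neither filter nor floor, averaging the detected probes of a gene, keeping outlier spots, a 3-fold threshold, the deposited ratios and, chosen after seeing the data, the 75th percentile with each probe counted once. Probes are placed on mm9 as in the deposited files, and gene models of that build were not used here, so exons were not assigned. Promoters come from RefSeq on GRCm38.p6, with windows for 7 of the 8 genes.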

Additional observations from a re-analysis of the deposited data

Results flagged for a closer look

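The dimmer Osm probe and the brightest Il6st probe had differences from LPS of opposite sign with LOC1 and LOC3. For the dimmer Osm probe LOC1 lay 0.20 above LPS on the log2 scale and LOC3 at −0.15, which is 0.35 apart. For the brightest Il6st probe it was −0.09 with LOC1 and 0.06 with LOC3, which is −0.15 for LOC1 minus LOC3. With 1 array per condition the difference between the strains was not tested for either. The other detected probe of each gene lay above LPS with both strains, at 0.31 and 0.19 for Osm and at 0.20 and 0.16 for Il6st.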

How the results depend on the processing

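With LOC1 the count of members past 2-fold was 3. It was 2 with normexp and with both arrays well above background (Il6 and Il6ra), 2 with averaged probes (Il6 and Lifr), and 0 at a 3-fold threshold. With LOC3 the count of 3 became 1, Il6, with median scaling, with normexp and with the 75th percentile over probes counted once, an alternative chosen after seeing the data, and 0 at 3-fold. It was 2 with quantile normalization and with both arrays well above background (Il6 and Il6ra), and 2 with averaged probes (Il6 and Lifr). Between LOC1 and LOC3 the count of 0 became 1, Lif, with no filter and no floor, where its signals were below background. Il6 stayed between 1.31 and 1.62 with LOC1 and between 1.10 and 1.43 with LOC3 over the alternatives, and Il6ra between −1.28 and −0.60 and between −1.05 and −0.81. Of 15 member values 13 kept 1 sign over the alternatives. The exceptions were Il6st with LOC1, from −0.13 to 0.13, and Il6ra for LOC1 minus LOC3, from −0.24 to 0.33. Median scaling moved the median of all genes by 0.22 with LOC1 and 0.21 with LOC3. It changed the genes higher and lower from 499 and 764 to 891 and 466 with LOC1, and from 595 and 630 to 899 and 377 with LOC3, and quantile normalization gave 629 and 611 with LOC1. Over all genes the count past 2-fold with LOC1, 1263, was 420 with normexp, 3847 with no filter and 411 at 3-fold. With LOC3, 1225 became 407, 3798 and 402 in the same order, and 712 when both arrays had to be well above background. Between the strains, 517 became 150, 2825 and 286, and 105 with both arrays. The cause was not tested. The t-test of the methods was not run because each condition had 1 array. No paired analysis was possible because each condition had 1 array. Low signal limits Lif, Il11, Osmr and Lifr to bounds or to no fold.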
